A study of Rattus norvegicus with 4 samples.

Results

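The genes described here encode neuropeptides or the granins stored with them: Pdyn, Penk, Npy, Sst, Cck, Tac1, Vip, Gal, Scg2 and Vgf. They were found on Agilent whole rat genome arrays by gene name or RefSeq transcript, which gave 11 of the 41012 probes and 10 of the 35731 genes or accessions that the probes name. Penk had 2 probes and every other gene had 1. Because some probes were printed 10 times, the 11 probes covered 56 spots per array.

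The study co-cultured mouse hippocampal neurons from embryonic day 18 with cortical astrocytes of Wistar rat pups at postnatal day 1, and asked which astrocyte mRNAs respond to neurons. The study compared 3 RNA populations. CC was the intact co-culture of mouse neurons and rat astrocytes. CC-CJ was the same co-culture after cold jet, in which chilled buffer is pipetted onto the well until the neurons come off. AA-CJ was rat astrocytes cultured without neurons and given the same cold jet. Each of the 4 arrays held CC-CJ in the Cy3 channel, and the Cy5 channel held AA-CJ on 2 of them and CC on the other two. The dyes were not swapped, and all arrays were on 1 slide. A dye effect on a gene therefore cannot be told apart from a difference between CC-CJ and either other RNA. Between CC and AA-CJ, both in Cy5, a dye effect equal on all arrays cancels. The arrays carry rat probes while the neurons are mouse cells, so rat and mouse mRNA of a gene cannot be told apart, and neither can fewer cells of a type and less RNA per cell. All 10 astrocyte markers, Gfap and Aqp4 among them, were well above background in all 3 RNAs.

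Neuropeptides are made as larger precursors that are sorted into dense core vesicles, cut at basic residues by prohormone convertases and released upon calcium entry to act on G protein-coupled receptors. In the cortex and hippocampus most of them mark particular neurons. Npy, Sst, Vip and Cck are classical interneuron peptides, Pdyn is known from dentate granule cells, and Vgf and Scg2 follow neuronal activity. Cultured astrocytes are known to make some peptides too, proenkephalin being the best studied.

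Promoters are shown for the genes whose mRNA moved most and for Scg2, because several neuropeptide genes are textbook targets of CREB, which binds the cyclic AMP response element TGACGTCA. RefSeq (GRCr8) promoters, running from 250 bases before to 50 bases after the annotated start, were matched for 8 of the 10 genes, and were not matched for Penk and Cck. The sequences are those of the rat gene. Capitals mark the element and its half-site TGACG on either strand. The element reads alike on both strands and holds the half-site on each of them.
Vgf, chr12:25276971-25277270, strand -: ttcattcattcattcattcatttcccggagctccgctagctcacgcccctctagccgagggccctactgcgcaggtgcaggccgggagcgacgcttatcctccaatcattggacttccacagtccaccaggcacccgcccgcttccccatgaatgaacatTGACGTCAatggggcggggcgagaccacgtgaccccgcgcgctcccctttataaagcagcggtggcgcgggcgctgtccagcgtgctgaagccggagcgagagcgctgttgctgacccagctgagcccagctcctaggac
Scg2, chr9:88256817-88257116, strand -: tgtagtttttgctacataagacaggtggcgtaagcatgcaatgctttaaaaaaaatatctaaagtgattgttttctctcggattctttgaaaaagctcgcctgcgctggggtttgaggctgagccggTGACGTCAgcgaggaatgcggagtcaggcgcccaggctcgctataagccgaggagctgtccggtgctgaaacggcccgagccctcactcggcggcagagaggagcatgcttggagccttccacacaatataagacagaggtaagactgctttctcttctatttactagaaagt
Sst, chr11:90461296-90461595, strand +: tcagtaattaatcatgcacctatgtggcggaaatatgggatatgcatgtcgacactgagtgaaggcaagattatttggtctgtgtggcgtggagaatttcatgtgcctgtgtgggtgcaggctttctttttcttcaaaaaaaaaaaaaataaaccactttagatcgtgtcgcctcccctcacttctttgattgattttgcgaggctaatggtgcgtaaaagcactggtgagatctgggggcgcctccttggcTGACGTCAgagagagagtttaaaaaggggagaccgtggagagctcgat
Pdyn, chr3:137366454-137366753, strand -: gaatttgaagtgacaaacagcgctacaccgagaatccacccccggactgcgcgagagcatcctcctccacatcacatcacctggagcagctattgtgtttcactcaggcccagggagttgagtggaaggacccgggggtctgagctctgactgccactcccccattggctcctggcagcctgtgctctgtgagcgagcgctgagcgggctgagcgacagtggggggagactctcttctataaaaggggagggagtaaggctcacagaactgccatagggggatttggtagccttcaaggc
Npy, chr4:80211861-80212160, strand +: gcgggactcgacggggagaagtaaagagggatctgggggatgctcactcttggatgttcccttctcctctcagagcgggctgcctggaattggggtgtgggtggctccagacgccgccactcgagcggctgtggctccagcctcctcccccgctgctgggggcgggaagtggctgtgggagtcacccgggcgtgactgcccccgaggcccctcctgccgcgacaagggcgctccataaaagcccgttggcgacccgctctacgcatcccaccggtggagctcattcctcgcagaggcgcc
The complete element was present in 3 of the 8 promoters, those of Vgf, Scg2 and Sst, against 1.91% of 27457 rat promoters of the same length. It began 90 bases before the annotated start in Vgf, 123 bases before it in Scg2 and 2 bases after it in Sst. The half-site alone was found in Tac1, Vip and Gal too, which made 6 of 8 genes against 22% of all promoters. In these windows of Pdyn and Npy neither was found. The AP-1 letters TGANTCA, searched on both strands, were in none of the 8 windows and in 7.33% of all promoters. A match is a description of these letters and not a site of binding.

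For each array M is log2 of CC-CJ over the other RNA. A probe was kept if 1 of the RNAs or more was well above background on all of its arrays, and M was tested with limma over 21365 genes. A gene was called at an adjusted p under 0.05 (Benjamini-Hochberg). The remaining comparison, CC versus AA-CJ, is the difference between the other two and therefore shares all its arrays with them. Of the 10 genes, 8 were tested. Tac1 and Vip were not well above background in any channel. All p-values rest on 2 arrays per comparison, or on 4 for CC versus AA-CJ. By the study's methods the replicates came from different pools of animals, so that each value is that of a pool of animals and the spread between single animals was not measured. The number of arrays limits the precision.

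The share of genes called was low in each comparison. Between CC-CJ and AA-CJ, 3.12% of all genes were called, 1.96% higher and 1.16% lower in CC-CJ. Of the 8 neuropeptide genes 2 were higher, Pdyn and Npy, and 0 were lower. Between CC-CJ and CC, 2.36% of all genes were called, and 0.0983% were higher in CC-CJ and 2.26% were lower. Cck and Vgf were among the lower genes, and 0 of the 8 were higher. Between CC and AA-CJ, 2.68% of all genes were called, and 2.6% were higher in CC and 0.0796% were lower. Pdyn, Npy, Cck and Vgf were higher, and 0 were lower. Without adjustment, 4834, 3614 and 3795 genes had a limma p under 0.05 in the 3 comparisons. The median log2 difference of the 8 genes was 0.29 for CC-CJ versus AA-CJ, where that of all genes was -0.016. It was -0.32 for CC-CJ versus CC, against -0.024 for all genes, and 1.53 for CC versus AA-CJ, against 0.0015 for all genes.

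**Figure D1:**
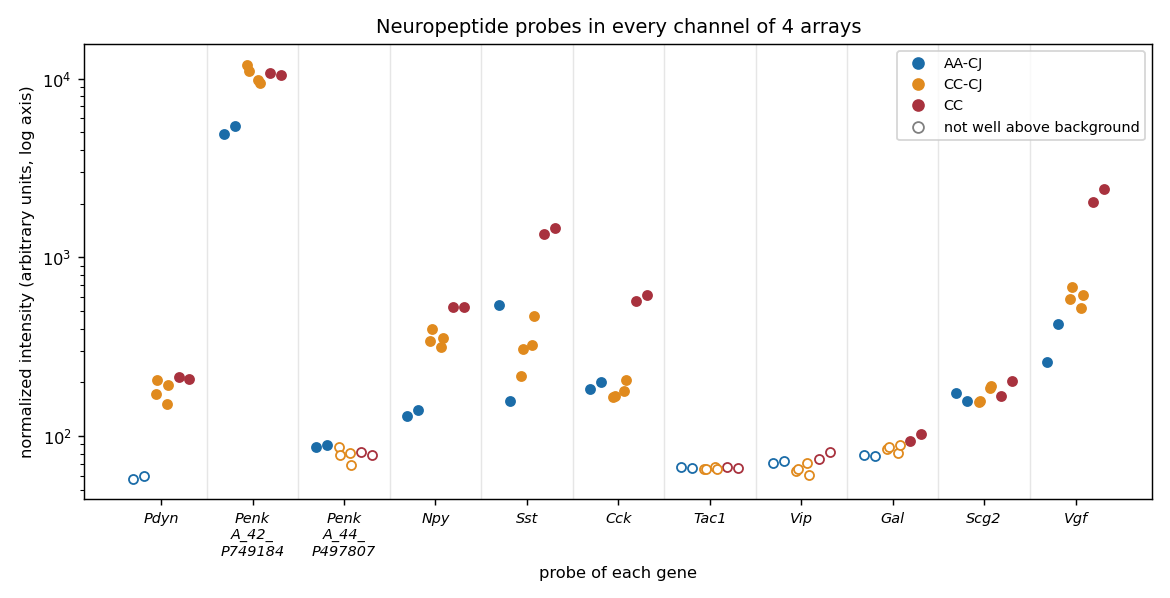
Normalized intensity (log axis) of each of the 11 probes in all 8 channels, coloured by RNA, with open symbols where the probe was not well above background. Values are to be compared within a probe only. Pdyn was above background in CC-CJ and CC and in neither AA-CJ channel, and Cck was highest in the 2 CC channels.

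Of the opioid precursors, Pdyn encodes prodynorphin, the source of the dynorphins that act on kappa receptors. Its probe (rn4 chr3:117291061-117291120) gave normalized intensities of 171 and 152 in CC-CJ against 57.9 and 59.6 in AA-CJ. On the other arrays it gave 205 and 193 in CC-CJ against 214 and 210 in CC. Pdyn was thus present with and without cold jet in the co-culture, and in astrocytes alone neither array had it well above background. M was 1.57 and 1.35 on the AA-CJ arrays and -0.06 and -0.12 on the CC arrays. Pdyn was at least 2.36-fold higher in CC-CJ relative to AA-CJ by channel levels. The fit gave 2.75-fold (limma, adjusted p = 0.00134), with an AA-CJ signal that was not well above background. Against AA-CJ, CC was at least 3.10-fold higher by channel levels, which are set across arrays. The fit, which takes ratios within arrays, gave 2.92-fold (limma, adjusted p = 0.00153), so that the size of this difference depends on the scaling. Cold jet left it at -0.09 ± 0.09 on the log2 scale (SE, n = 2 arrays, limma, adjusted p = 0.650), a difference of the size of its SE that did not pass the test, with the same sign on both arrays. Under median centring, which put the median of all genes at -0.590 here, it was -0.76 (limma, adjusted p = 0.000456). Its call against AA-CJ was kept in 18 of 18 alternatives, but the size depended on the treatment of dim signals. The log2 difference was 2.58 with an offset of 10, 1.46 with 50, 0.95 with 100 and 1.29 with no background correction, and the Feature Extraction log ratio, which differs in background correction and normalization, gave 4.79.

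Penk encodes proenkephalin, the precursor of the enkephalins. The probe at rn4 chr5:17509637-17509696 was bright in all RNAs. It read 11974 and 9881 in CC-CJ against 4901 and 5442 in AA-CJ, and 10984 and 9492 in CC-CJ against 10822 and 10507 in CC. All co-culture channels lay above both channels of astrocytes alone. M of this probe was 1.29 and 0.86 on the AA-CJ arrays, with a mean of 1.07 ± 0.12 (SE, n = 2 arrays, limma over probes, adjusted p = 0.0101). On the CC arrays it was 0.02 and -0.15. For this probe CC was above AA-CJ by 1.14 ± 0.17 (adjusted p = 0.0193, limma over probes).

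The other Penk probe, at rn4 chr5:17514076-17514135, disagreed. Both lie on the minus strand, so that the bright probe is nearer the 3′ end of the gene. The second probe read between 69.2 and 89.5 in all channels and was well above background only in AA-CJ. Its M was 0.01 and -0.15 on the AA-CJ arrays. The mean of both probes, which is the value tested for the gene, was 0.50 ± 0.10 for CC-CJ versus AA-CJ (SE, n = 2 arrays, limma, adjusted p = 0.0519) and 0.59 ± 0.14 for CC versus AA-CJ (adjusted p = 0.0993). Neither passed the threshold. CC-CJ versus AA-CJ passed in 10 of 19 alternatives, and under median centring the mean was -0.17. Among the 10, the fit of the AA-CJ arrays only and those without either CC array are the same test. The settings of single probes and of probes well above background in all channels counted the bright probe alone.

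Npy encodes neuropeptide Y, a peptide of many interneurons that acts on Y receptors. Its probe (rn4 chr4:78045125-78045184) read 341 and 314 in CC-CJ against 130 and 141 in AA-CJ. On the other arrays it read 396 and 356 in CC-CJ against 531 and 525 in CC. The level was lowest in astrocytes alone, intermediate after cold jet and highest in intact co-culture, with no overlap between the 3 RNAs. M was 1.40 and 1.16 on the AA-CJ arrays, with a mean of 1.28 ± 0.09 (SE, n = 2 arrays), a 2.42-fold difference (limma, adjusted p = 0.00269). Intact co-culture exceeded AA-CJ by 3.41-fold (adjusted p = 0.00115). On the CC arrays M was -0.42 and -0.56, a mean of -0.49 ± 0.09 that missed the threshold (limma, adjusted p = 0.0553). It passed when only those 2 arrays were fitted (limma, adjusted p = 0.0345), and leaving out either AA-CJ array gives that same test. The 10 spots of Npy ranged from 1.24 to 1.50 and from 1.07 to 1.26 on the AA-CJ arrays. They ranged from -0.51 to -0.31 and from -0.68 to -0.41 on the CC arrays. Every spot thus had the sign of its array's mean.

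**Figure D2:**
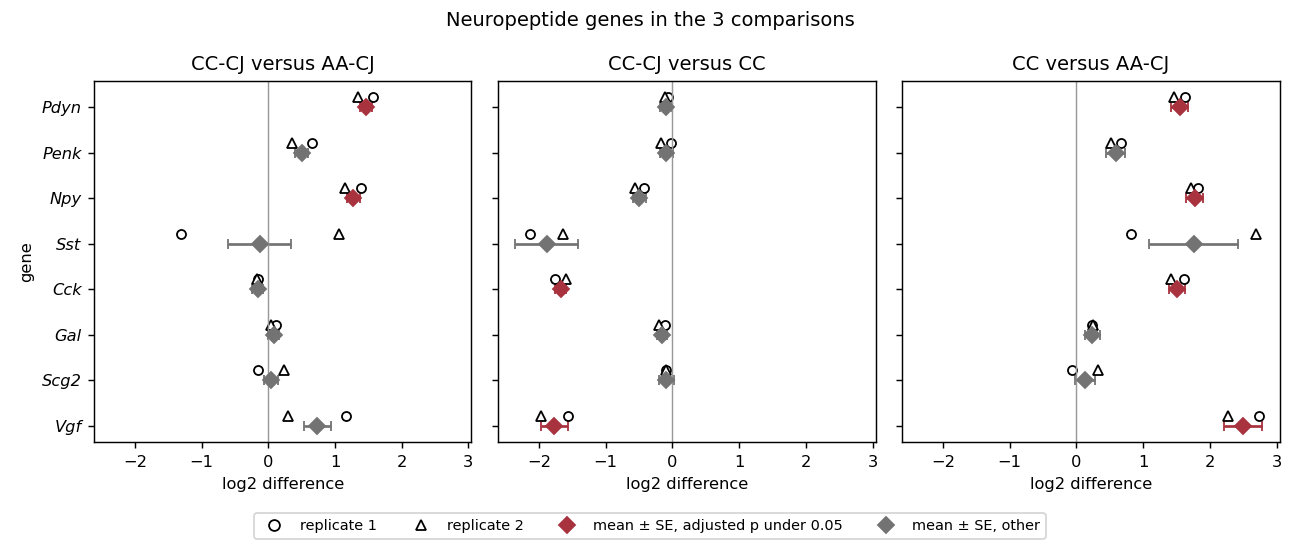
Log2 differences of the 8 tested genes in the 3 comparisons. Open symbols are single arrays. For CC versus AA-CJ they are differences of arrays with the same number, and the labels do not say whether such arrays share RNA. Diamonds are means with the limma SE, and red diamonds have an adjusted p under 0.05. Pdyn and Npy are red for CC-CJ versus AA-CJ, Cck and Vgf for CC-CJ versus CC, and all 4 for CC versus AA-CJ.

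Cck encodes cholecystokinin, which cortical interneurons and pyramidal cells both make. Its probe (rn4 chr8:126492829-126492888) read 165 and 179 in CC-CJ against 183 and 201 in AA-CJ. On the other arrays it read 169 and 206 in CC-CJ against 571 and 619 in CC. The CC-CJ and AA-CJ levels overlapped, and both CC levels lay well above them. M on the CC arrays was -1.76 and -1.59, so that Cck was 3.19-fold lower after cold jet (log2 difference -1.67 ± 0.08, SE, n = 2 arrays, limma, adjusted p = 0.000215), a call kept in 19 of 19 alternatives. CC was 2.85-fold above AA-CJ (adjusted p = 0.00136). M on the AA-CJ arrays was -0.15 and -0.17 (adjusted p = 0.320), and under median centring it was -0.68 (adjusted p = 0.000709), with the median of all genes at -0.485.

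Sst encodes somatostatin, which marks a large class of dendrite-targeting interneurons. Its probe (rn4 chr11:79126027-79126086) read 219 in CC-CJ and 540 in AA-CJ on the array of replicate 1, and 324 in CC-CJ and 156 in AA-CJ on that of replicate 2. The AA-CJ arrays thus gave opposite signs, with M at -1.31 and 1.05, and their mean of -0.13 ± 0.47 (SE, n = 2 arrays, limma, adjusted p = 0.909) describes neither. The 10 spots on each array agreed, ranging from -1.37 to -1.20 on one and from 0.89 to 1.19 on the other. The gap of 2.36 between the arrays was exceeded by 1 of 21365 genes, where the median gap of all genes was 0.143. The summed level of 6 GABA interneuron markers was 1488 in AA-CJ of replicate 1 and 1732 in that of replicate 2. Of 11 such markers on the arrays, 4 were well above background in AA-CJ. What set these arrays apart for Sst was not tested.

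On the CC arrays Sst read 308 and 468 in CC-CJ against 1347 and 1453 in CC, and M was -2.13 and -1.63. Both arrays were lower after cold jet, yet in the fit over all arrays the difference of -1.88 ± 0.47 was not called (limma, adjusted p = 0.119), because the spread is shared with the AA-CJ arrays. Fitted over the 2 CC arrays only, its adjusted p was 0.00047 in limma, and leaving out either AA-CJ array gives that same test. CC versus AA-CJ was 1.76 ± 0.67 (adjusted p = 0.242), and it depended on the AA-CJ array used. It was 2.93 (adjusted p = 0.00138) without the AA-CJ array of replicate 1 and 0.58 (adjusted p = 0.267) without that of replicate 2. Each of these fits has 1 AA-CJ array, which is assumed to vary like the CC arrays, and says nothing about the spread between AA-CJ arrays.

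**Figure D3:**
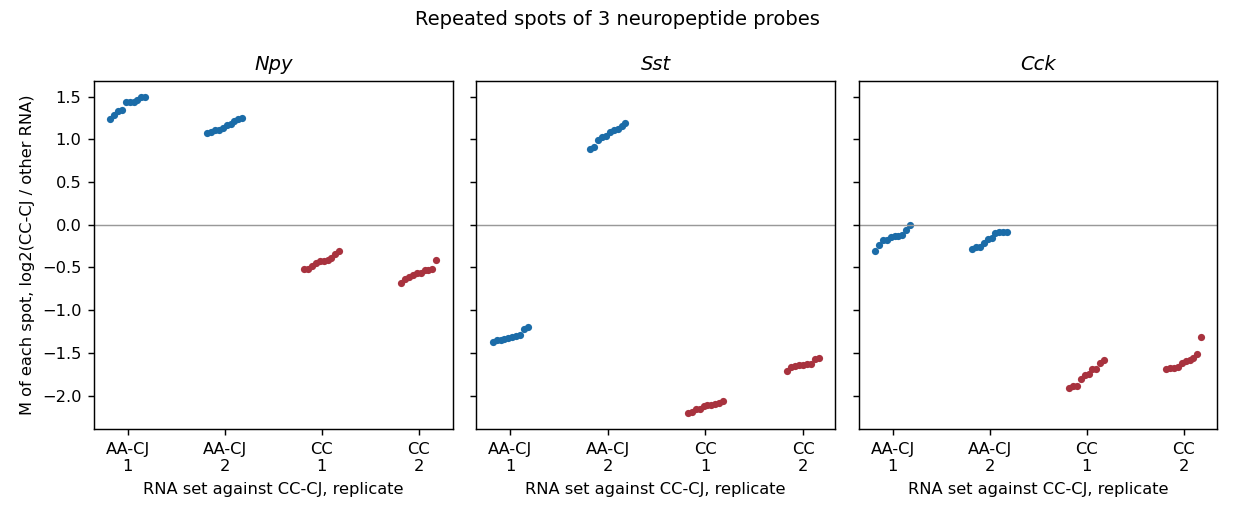
M of every spot of the Npy, Sst and Cck probes (10 spots per array, 9 for Sst on the CC array of replicate 2), by the RNA set against CC-CJ and the replicate. The spots of an array lie together, and only for Sst do the 2 AA-CJ arrays lie on opposite sides of 0.

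Tac1, Vip and Gal were at or near background. Tac1 encodes the substance P precursor, and its probe (rn4 chr4:32657311-32657369) read 65.4 to 67.2 in all channels with 0 of its spots well above background. Vip encodes vasoactive intestinal peptide, and its probe (rn4 chr1:36369392-36369451) read 60.8 to 74.8 in the channels other than CC of replicate 2, where it read 81.1. These are limits of the arrays and do not show that the mRNAs were absent. Gal encodes galanin, and its probe (rn4 chr1:205936430-205936489) was well above background in CC alone, at 94.2 and 103, against 87.4 and 89.3 in CC-CJ on the same arrays and 78.3 and 77.8 in AA-CJ. Against these dim channels only bounds can be given. By channel levels CC was at least 1.11-fold above CC-CJ and at least 1.26-fold above AA-CJ. The fit of ratios within arrays, which gave 1.11-fold (limma, adjusted p = 0.390) and 1.18-fold (adjusted p = 0.340), called neither, and these values depend on signals that were not well above background.

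Vgf encodes a secreted granin-like precursor that growth factors and activity induce in neurons. Its probe (rn4 chr12:20906265-20906324) read 585 and 518 in CC-CJ against 260 and 423 in AA-CJ. On the other arrays it read 688 and 617 in CC-CJ against 2043 and 2421 in CC. CC was the highest and AA-CJ the lowest, with no overlap. M on the CC arrays was -1.57 and -1.97, which made Vgf 3.41-fold lower after cold jet (limma, adjusted p = 0.00677). The CC level was 5.67-fold that of AA-CJ (log2 difference 2.50 ± 0.29, SE, n = 4 arrays, limma, adjusted p = 0.00699). M on the AA-CJ arrays was 1.17 and 0.29, and the mean of 0.73 ± 0.20 was not called (limma, adjusted p = 0.0983). With 1 AA-CJ array, assumed to vary like the CC arrays, it was 1.17 (adjusted p = 0.0198) without replicate 2 and 0.29 (adjusted p = 0.427) without replicate 1. Under median centring it was -0.16.

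Scg2 encodes secretogranin II, the precursor of secretoneurin. Its probe (rn4 chr9:78763534-78763593) read 156 and 185 in CC-CJ against 173 and 158 in AA-CJ, and 158 and 192 in CC-CJ against 168 and 205 in CC. The RNAs overlapped. The log2 differences were 0.04 ± 0.11, -0.09 ± 0.11 and 0.13 ± 0.15 in the 3 comparisons (SE), with adjusted p of 0.864, 0.716 and 0.699 in limma. The last comparison rests on 4 arrays and the others on 2 arrays each. Under median centring Scg2 was -0.43 in CC-CJ versus AA-CJ (limma, adjusted p = 0.0316) and -0.68 in CC-CJ versus CC (adjusted p = 0.00377). The median of all genes was then at -0.485 and -0.590. Scg2 and Vgf, whose promoters both hold the complete element shown above, thus lay apart in CC versus AA-CJ, and this difference between genes was not tested.

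**Figure D4:**
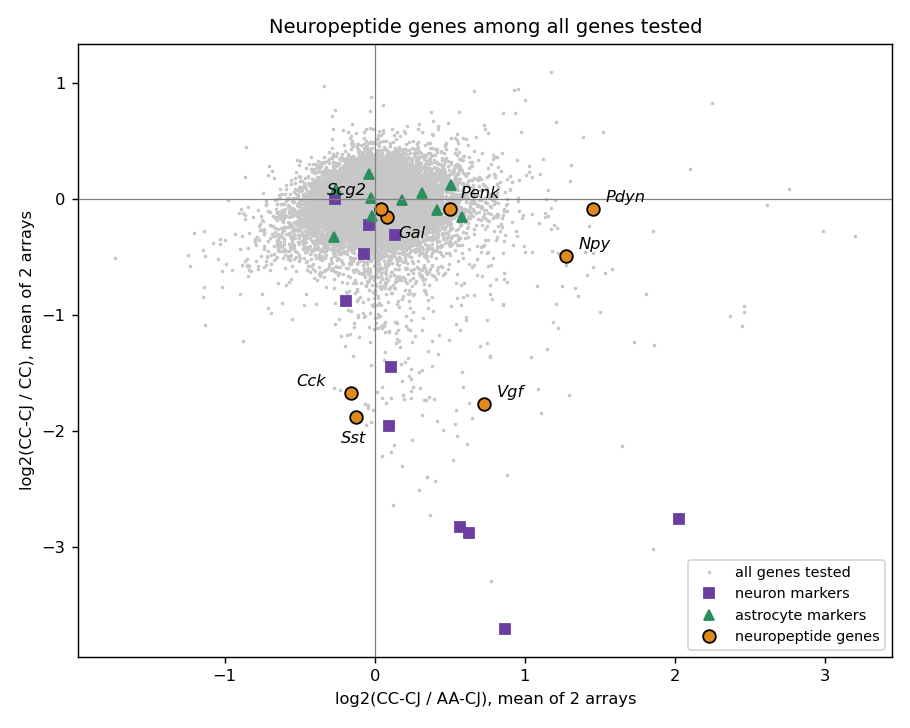
Mean M on the AA-CJ arrays (x axis) against mean M on the CC arrays (y axis) for all 21365 genes, with the neuropeptide genes, neuron markers and astrocyte markers marked. Both axes contain CC-CJ. Pdyn and Npy lie to the right, at -0.09 and -0.49 on the y axis, while Cck, Sst and Vgf lie between -1.67 and -1.88 on the y axis beside neuron markers.

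After the way the study measured cold jet efficiency, the share remaining was taken as the CC-CJ level minus the AA-CJ level, as a percentage of the CC level minus the AA-CJ level. The CC-CJ level was that on the CC array. It was read in Cy3 and the other levels in Cy5, so a dye effect may be part of the share. This share was computed for the 5 neuropeptide genes that were at least 2-fold higher in CC than in AA-CJ, taking arrays of the same number together, and is a description with no test. For Pdyn the share remaining was 91.7% ± 3.63 (SD, n = 2), with 94.2% and 89.1% in the replicates. For Npy it was 61.1% ± 7.34 (SD, n = 2). On the AA-CJ arrays the CC-CJ levels were lower, at 171 and 152 for Pdyn against 205 and 193 on the CC arrays. For Npy they were 341 and 314 against 396 and 356. Shares taken with those lower levels would be smaller. The printed shares of Pdyn and Npy lay above those of the 6 neuron markers that met the same rule. The marker shares ran from 4.92% for Dcx to 13.9% for Tubb3 with a median of 9.32%. Vgf had a share of 16.8% ± 10.1 (SD, n = 2), made of 24.0% and 9.71%. Cck was at -1.26% ± 3.44 (SD, n = 2), so that its mean level after cold jet was at that of AA-CJ. The 2 values of Sst, -28.8% and 24.0%, carry the disagreement of the AA-CJ arrays.

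**Figure D5:**
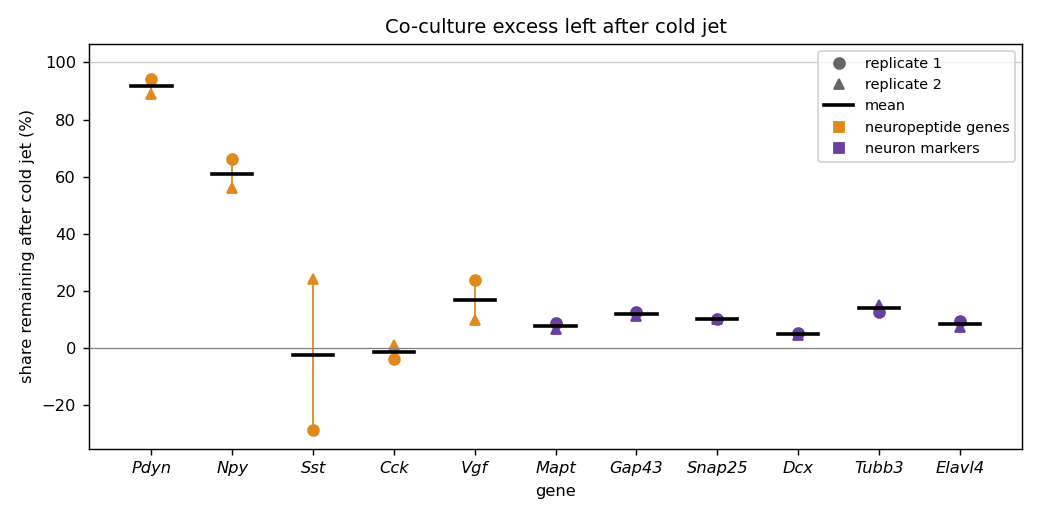
Share of the co-culture excess remaining after cold jet, in percent, for 5 neuropeptide genes and 6 neuron markers, with both replicates and their mean. CC-CJ levels are those on the CC arrays. Pdyn (91.7%) and Npy (61.1%) lie above the neuron markers, which end at 13.9%, and the replicates of Sst differ most.

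The criteria of the methods for a neuron-responsive astrocyte mRNA ask for M beyond 2 SD of all probes on both AA-CJ arrays. Of the mRNAs higher in CC-CJ, they drop those that fell beyond the lower limit on the CC arrays. The upper limits were 0.47 and 0.43 on the AA-CJ arrays, and the lower limits -0.42 and -0.55 on the CC arrays. Where an mRNA has several probes, the criteria also ask that these give comparable results. Pdyn met the criteria. The bright Penk probe passed the upper limit on both AA-CJ arrays and stayed above the lower limit on the CC arrays, but the other Penk probe did not pass the upper limit on either AA-CJ array, and the methods give no measure for comparable results. Npy passed the upper limit on both AA-CJ arrays and was below the lower limit on both CC arrays, by a narrow margin. Sst, Cck and Vgf were below the lower limit on both CC arrays. With 1 SD, Vgf passed the upper limit on both AA-CJ arrays as well, and stayed below the lower limit on both CC arrays.

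By the 4 M values, the genes most like each called gene were found among 8407 named genes (Euclidean distance, a description over 4 arrays). Nearest to Pdyn were Foxj1, a transcription factor of ciliated cells, at 0.41, Igfbpl1 at 0.47 and Nppc, the C-type natriuretic peptide precursor, at 0.47. These distances hold M of Pdyn on the AA-CJ arrays, the size of which depended on the treatment of dim signals. Npy was nearest to Gabrb1, a GABA-A receptor subunit, at 0.14, then to Hopx at 0.25 and Prph at 0.26. Cck was nearest to Gabbr2, a GABA-B receptor subunit, at 0.25, then to the neuronal transcription factor Neurod2 at 0.35 and Bex2 at 0.35. Vgf was nearest to Chgb, which encodes the granin chromogranin B, at 0.12. Chgb shared its unequal M on the AA-CJ arrays, at 1.26 and 0.25. Olfm1 at 0.41 and Rtn1 at 0.62 followed. For Sst, which was added after its values were seen, the nearest gene was Gabbr2 at a distance of 1.52.

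Among 25 tested of 42 other peptide precursors, 2 were higher and 2 lower in CC-CJ relative to AA-CJ, with a median log2 difference of -0.05. Nppc was higher at 1.13 (limma, adjusted p = 0.00253), as was Pnoc, the nociceptin precursor, at 0.59 (adjusted p = 0.0314). Npvf fell by 0.65 and Pomc, the opiomelanocortin precursor, fell by 0.46. Between CC-CJ and CC 2 were lower and 0 were higher (median -0.07), Grp, gastrin-releasing peptide, at -1.78 and Pnoc at -1.62. Between CC and AA-CJ 3 were higher and 1 was lower (median 0.08), with Pnoc at 2.21, Grp at 1.73, Nppc at 1.25 and Npvf at -0.60. Nppc thus stood with Pdyn in being higher in the co-culture with and without cold jet, and Grp and Pnoc were lower after cold jet like Cck and Vgf.

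The 5 other granins were all tested. Chgb (-1.75) and Scg5 (-0.72), which encodes the convertase chaperone 7B2, were lower in CC-CJ relative to CC and were the 2 of 5 that passed the test. The same 2 were higher in CC than in AA-CJ, at 2.50 and 0.94, and 0 of 5 were called between CC-CJ and AA-CJ. The medians were -0.06, -0.38 and 0.32 in the 3 comparisons. Of 10 prohormone processing genes tested, 1 was higher in CC-CJ relative to AA-CJ. It was Cpe, the carboxypeptidase E that trims basic residues from cut precursors, at 0.82 ± 0.08 (SE, n = 2 arrays, limma, adjusted p = 0.00983), and it was higher in CC at 0.76 (adjusted p = 0.0267). In CC-CJ versus CC it was 0.06 and 0 of 10 were called. The medians of the list were 0.11, 0.03 and 0.03. Of 8 peptide-degrading enzymes tested, 0 were called in any comparison, with medians of -0.0035, -0.05 and -0.02.

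Of 6 dense core vesicle genes tested, 2 were higher in CC-CJ relative to AA-CJ, Cadps, a priming factor of dense core vesicles, at 1.30 and Bace2 at 0.66. Cadps was lower in CC-CJ relative to CC at -1.69, the 1 call of 6, and both genes were higher in CC than in AA-CJ, at 2.98 and 0.70. The medians were -0.09, -0.26 and 0.21. Of 24 peptide receptors 10 could be tested. Sstr2, a somatostatin receptor, was lower after cold jet at -1.11 and higher in CC than in AA-CJ at 1.16, and no other receptor was called. The receptor medians were -0.0012, 0.02 and -0.04.

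Markers of other cells moved with these results. Of 11 neuron markers tested, 4 were higher in CC-CJ relative to AA-CJ, 7 were lower in CC-CJ relative to CC and 6 were higher in CC than in AA-CJ. Gap43 was at 2.03, -2.76 and 4.79 in the 3 comparisons and Dcx at 0.87, -3.70 and 4.57. The list's medians were 0.11, -1.45 and 1.56. Their summed level was 8700.2 and 9211 in AA-CJ, 8202 to 8640.4 in CC-CJ and 19168 and 19801 in CC, so that the sum after cold jet was no higher than in astrocytes alone. Of 6 GABA interneuron markers tested, 4 were lower in CC-CJ relative to CC and 4 were higher in CC than in AA-CJ, among them Reln at -1.73 and Slc32a1, the vesicular GABA transporter, at -1.47 in CC-CJ versus CC. None of the 6 was called between CC-CJ and AA-CJ, where Pdyn and Npy were. Their medians were 0.07, -0.91 and 0.98, and their sums were 1488 and 1732 in AA-CJ, 1231 to 1398 in CC-CJ and 2261 and 2405 in CC. Of 3 glutamatergic markers tested, Neurod2 (-1.80) and Neurod1 (-0.58) were lower in CC-CJ relative to CC, and Neurod2 was higher in CC than in AA-CJ at 1.76. Their medians were -0.0060, -0.58 and 0.57. Their sums were 216 and 241 in AA-CJ, 232 to 325 in CC-CJ and 707 and 786 in CC. Of the 6 on the arrays, 0 were well above background in AA-CJ, 0 in CC-CJ and 3 in CC. The sizes of these differences thus depend on signals that were not well above background. The part of remaining neurons in the values of Pdyn and Npy was not tested.

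Of 10 astrocyte markers, Aqp4 (0.51) and Fabp7 (0.42) were higher in CC-CJ relative to AA-CJ and 0 were called in the other comparisons. The list's medians were 0.08, -0.0025 and 0.16, and its sums were 57757 and 60777 in AA-CJ, 70660 to 75271 in CC-CJ and 74454 and 74998 in CC. Among 5 microglial markers tested, C1qa at 1.19 and Trem2 at 1.04 were the 2 higher in CC-CJ relative to AA-CJ, and they were lower in CC-CJ relative to CC at -1.06 and -1.36, as was Aif1 at -0.53. All 3 were higher in CC than in AA-CJ, and the other two, Cd68 and Csf1r, were called in no comparison. The list's medians were 0.25, -0.53 and 0.78. Of 7 microglial markers on the arrays, 1 was well above background in AA-CJ, 3 in CC-CJ and 5 in CC. Sizes in this list thus depend in part on dim signals. The microglial sums were 442 and 551 in AA-CJ, 627 to 799 in CC-CJ and 1301 and 1399 in CC. In the order of their sums they ran like Npy, and the part of microglia in that result was not tested.

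Of 8 oligodendrocyte lineage markers, Sox10 (-1.12) and Mag (-0.82) were lower in CC-CJ relative to CC, Mag was higher in CC than in AA-CJ (0.89), and 0 were called between CC-CJ and AA-CJ. Their medians were 0.07, -0.26 and 0.47, and their sums were 2899 and 3433 in AA-CJ, 2836 to 3045 in CC-CJ and 3416 and 4072 in CC. Of 3 endothelial markers Kdr was higher in CC-CJ (2.62) and in CC (2.67) than in AA-CJ, as Pdyn was. Cdh5 (0.25 and 0.10) and Vwf (-0.03 and 0.05) were not called. The list's medians were 0.25, -0.05 and 0.10, with sums of 252 and 295 in AA-CJ, 728 to 815 in CC-CJ and 814 and 828 in CC. Of 5 fibroblast and meningeal markers Dcn (-0.77) and Col1a2 (-0.59) were lower in CC-CJ relative to CC and Dcn was higher in CC than in AA-CJ (0.66), with medians of 0.0019, -0.17 and 0.28 and sums of 58575 and 61474 in AA-CJ, 55959 to 59680.2 in CC-CJ and 64715 and 66847 in CC. The part of these cells in the values of the neuropeptide genes was not tested.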

How the data were processed

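RNA of 3 culture conditions was measured on 4 rat arrays with 2 colours. The authors deposited, for each array, spot intensities on a linear scale from Agilent Feature Extraction 9.5.1.1. Its log10 ratio of Cy5 over Cy3, background-corrected and dye-normalized, was deposited beside them. A deposited series table holds the authors' processed log2 values, normalized by OLIN and OSLIN per the methods. Their correlation with M (-0.953 to -0.906 across probes) shows log2 of Cy5 over Cy3 with medians near 0 (-0.025 to 0.0085). Their centring is otherwise unknown, and both kinds of ratio were turned to Cy3 over Cy5.

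Mean signals were corrected by normexp (offset 50) and M was normalized by loess (span 0.3) in place of OLIN, with limma 3.58.1 in R 4.3.3. Control spots and 121 to 179 outlier spots per array were left out, and spots of a probe were averaged. Between 50.1% and 62.6% of probes per channel were well above background. Kept were 24861 probes, averaged per gene into 21365 genes. lmFit and eBayes (2 residual degrees of freedom, prior 4.72) were run on all 4 arrays. For a neuropeptide probe at background on every array of a group, the fold is a lower bound. The dim side was set, per array, to its own signal or to the lowest one that counts as well above background, whichever is higher. For the genes of the other lists, fitted log2 differences are given without bounds, also where a group was dim. Shares remaining used loess and Aquantile. The fit was tested on simulated data. RefSeq (GRCr8) named 10835 of the 16321 probes that carry its accessions, and other probes kept the file's name. Probe positions are those of rn4 in the scanner files. Promoters come from RefSeq (GRCr8).

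Named are all 10 genes with all probes and the 3 nearest genes of each called gene. Of each list, genes with the largest changes among those called in any comparison are named. Cd68, Csf1r, Cdh5, Vwf and Gfap are named although they were called in no comparison. The genes and lists were chosen with earlier results of these data known. Alternatives covered background correction, normalization, source of the values, filter, probe summary, arrays fitted, prior, pairing and each replicate left out.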

Additional observations from a re-analysis of the deposited data

How the results depend on the processing

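Calls of Pdyn and Npy against AA-CJ (18 of 18 and 19 of 19 alternatives) and of Cck against CC (19 of 19) held in each alternative run, while sizes moved. Over the alternatives the log2 difference of Npy in CC-CJ versus AA-CJ ran from 0.67 with median centring to 1.94 with the Feature Extraction log ratio (limma, adjusted p 1.34e-05 to 0.0415 over the alternatives). That of Cck in CC-CJ versus CC ran from -2.54 with median centring to -1.39 with offset 100. Vgf in CC-CJ versus CC was called in 18 of 19 alternatives, and the exception was the Feature Extraction log ratio (adjusted p = 0.0967). Only 2 arrays per comparison and the dim signal of Pdyn, Gal, Tac1 and Vip limit what can be seen. A fit of the 2 arrays of one comparison gives no CC versus AA-CJ value.

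Where all genes called between CC-CJ and AA-CJ numbered 666, they were 296 with offset 10, 13238 with median centring, 1055 with local regression on intensity and location, 77 with the Feature Extraction log ratio, 1124 with only the 2 arrays of the comparison and 4081 with separate channels. Between CC-CJ and CC, 504 became 14333 with median centring, 274 with the Feature Extraction log ratio, 290 with only probes well above background in all channels and 2006 with separate channels. Between CC and AA-CJ, 572 became 250, 348 and 3963 with the latter 3 settings. Median centring moved the median of all genes to -0.485, -0.590 and -0.013 in the 3 comparisons, and split the calls of CC-CJ versus AA-CJ into 709 higher and 12529 lower, against 418 and 248. Other splits that moved by over 10 percentage points were 239 and 57 with offset 10, 69 and 8 with the Feature Extraction log ratio, 1850 and 2231 with separate channels, 135 and 35 with a replicate block, 781 and 713 with a crossed block, 94 and 28 without AA-CJ replicate 1 and 442 and 89 without AA-CJ replicate 2. For CC-CJ versus CC (21 and 483) they were 90 and 470 with local regression, 157 and 553 with the authors' values, 503 and 1503 with separate channels and 144 and 476 without CC replicate 1. For CC versus AA-CJ (555 and 17) they were 550 and 85 with local regression, 2338 and 1625 with separate channels and 445 and 97 without CC replicate 1.

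Leaving out each array gave 122 to 1124 calls between CC-CJ and AA-CJ (122 without AA-CJ replicate 1), 204 to 688 between CC-CJ and CC (204 without CC replicate 2) and 352 to 653 between CC and AA-CJ (352 without CC replicate 2). The neuropeptide genes called higher in CC-CJ relative to AA-CJ were 4 in place of 2 with separate channels, and those called lower were 2 in place of 0 with median centring and 0 to 1 over the arrays left out (Sst, without AA-CJ replicate 2). Those lower in CC-CJ relative to CC, 2 in the reported fit, were 7 with median centring, 1 with the Feature Extraction log ratio, 4 with only the 2 arrays, 4 with separate channels and 2 to 4 over the arrays left out. Those higher in CC than in AA-CJ, 4 as reported, were 2 with the Feature Extraction log ratio and 7 with separate channels.

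Directions turned for genes that were not called. In CC-CJ versus AA-CJ these were Penk (-0.17), Scg2 (-0.43) and Vgf (-0.16) with median centring, Sst with separate channels (0.041), and, over the AA-CJ arrays left out, Sst (-1.31 to 1.05) and Scg2 (-0.15 to 0.23). In CC-CJ versus CC they were Pdyn with the authors' values (0.075) and Scg2 with local regression (0.011). In CC versus AA-CJ it was Scg2 over the arrays left out (-0.061 to 0.32). The cause was not tested. The median share remaining over the 5 genes, 16.8%, was 31.4% without subtracting AA-CJ, 18.3% without Aquantile and 24.0% without either replicate.

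The labels do not say that replicate numbers pair the arrays, and with 2 pairs the deviations of M of same-numbered arrays correlated at -0.112 across genes. Those of the Cy3 channel, which holds CC-CJ on each array, correlated at 0.465 and those of the Cy5 channel at -0.396. A replicate block gave 170, 312 and 294 calls in the 3 comparisons and changed no call of the neuropeptide genes. A block with crossed numbers, added after seeing the data, gave 1494, 850 and 829 calls, with 3 neuropeptide genes higher in CC-CJ relative to AA-CJ (Penk added) and 4 lower in CC-CJ relative to CC.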
